A study of Mus musculus with 6 samples.

Results

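The genes of 9 hematopoietic growth factor receptors and progenitor surface proteins (Csf1r, Csf2ra, Csf2rb, Csf2rb2, Csf3r, Il3ra, Kit, Flt3 and Cd34) were followed through the deposited RNA-seq libraries of mouse macrophages and leukemia cells. They were chosen by name and make up 9 of the 54532 genes in the deposited tables, and all 9 were detected in every library. Each of 6 conditions was sequenced once, which leaves no replicate error to set a difference against, and no p-value is given. WT macrophages came from C57BL/6 mice without leukemia that received PBS, and WT/FE macrophages came from such mice that received iron dextran (0.2 mL at 25 mg/mL, i.p., 6 injections given every other day). MA9 macrophages and MA9 leukemia cells came from C57BL/6 mice transplanted with GFP+ acute myeloid leukemia (AML) cells and given PBS, and MA9/FE macrophages and MA9/FE leukemia cells came from such mice given the same iron dextran. The mice were 6 to 8 weeks old. The leukemia was made by retroviral MLL-AF9-GFP infection of c-kit+ BM cells of C57BL/6J mice, so it descends from cells picked for the Kit protein and the fusion gene is driven by a retroviral vector and not by its own locus. The study's methods gate BM macrophages as GFP- cells with low Gr-1, a granulocyte protein, with F4/80 and with intermediate CD115. CD115 is the product of Csf1r, so this gene took part in the definition of macrophages gated in this way. The organ of the macrophages is uncertain: the labels say spleen and the study's methods say BM. No gate for spleen macrophages is given in the sources used here. The leukemia cells are labeled as BM cells. The number of mice behind a library is not given in the sources used here.

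Growth factor receptors let blood cells read the signals that keep them alive, make them divide and steer their lineage. Csf1r, Kit and Flt3 are receptor tyrosine kinases of one structural class, which dimerize around their ligand and phosphorylate themselves, whereas the receptors of GM-CSF, IL-3 and IL-5 are built from a ligand-specific alpha chain and a shared beta chain and signal through the kinase JAK2. Csf3r, the G-CSF receptor, is a homodimer that also uses JAK kinases, and CD34 is a sialomucin, no receptor of a known growth factor, that marks stem and progenitor cells. Csf1r is the receptor on which macrophages depend, Csf3r serves the neutrophil lineage, Kit marks stem, progenitor and mast cells, and Flt3 marks multipotent and lymphoid progenitors and dendritic cells.

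Between 16085348 and 19518360 reads per library were recovered from the deposited FPKM (fragments per kilobase of exon per 1000000 reads, a level per length, so that levels of different genes can be set side by side). The marker genes of other cells are given first, since many of them were well detected in the macrophage libraries. All 8 B cell markers had at least 10 reads in each macrophage library, and their summed level in macrophages was 2063 FPKM (WT), 1915 (WT/FE), 1171 (MA9) and 2076 (MA9/FE), against 20.4 (MA9) and 18.9 (MA9/FE) in leukemia cells. The summed level of 8 dendritic cell markers other than Flt3 lay between 2200 and 3479 FPKM in the macrophage libraries and at 134 and 121 FPKM in the leukemia cells. Most of the macrophage sum was 1 gene, H2-Ab1, with 3128 (WT), 2889 (WT/FE), 1909 (MA9) and 3132 FPKM (MA9/FE). In the leukemia cells H2-Ab1 had 42.3 and 45.4 FPKM, and Bst2 of the same list had 82.6 and 66.8 FPKM. The 16 macrophage markers other than Csf1r summed to 377 (WT) and 347 FPKM (MA9) in macrophages without iron, to 653 (WT/FE) and 883 FPKM (MA9/FE) with iron, and to 166 and 167 FPKM in the leukemia cells. The 14 neutrophil markers other than Csf3r summed to 12.5 and 9.78 FPKM in WT and WT/FE macrophages, to 1924 FPKM in those of MA9 mice and 980 FPKM in those of MA9/FE mice, and to 6233 and 4912 in the leukemia cells. Among the other lists, 9 progenitor genes (Cd34, Kit and Flt3 left out) summed to 18.4 to 110 FPKM in the macrophage libraries and to 2014 and 2049 FPKM in the leukemia cells, 6 monocyte genes to 89.5 to 222 and to 854 and 940, 6 plasma cell genes to 996 to 2559 and to 76.4 and 77.6, and 10 T and NK cell genes to 140 to 206 and to 49.8 and 51.7. Most of the progenitor sum in the leukemia cells was Mpo (775 and 744 FPKM), also in the neutrophil list, and Ctsg (1091 and 1154 FPKM). Procr alone of the 9 was lower in the leukemia cells (0.109 and 0.138 FPKM) than in the macrophages (5.17 to 7.14 FPKM). In the macrophage libraries the lists of basophils and mast cells summed to 18.0 to 167 FPKM, of erythroid cells to 94.6 to 499, of megakaryocytes to 6.35 to 19.9 and of endothelial and stromal cells to 24.2 to 32.4. In bulk RNA, a lower level can come from fewer cells of a type or from less RNA per cell, and these cannot be told apart.

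In every macrophage and leukemia cell library, Csf2ra, the alpha chain of the GM-CSF receptor, stood highest of the 9 genes and Csf1r came next. Below them the order split by cell type. In all 4 macrophage libraries Flt3 took rank 3, followed by Csf2rb and Kit, and Cd34 was last. In the leukemia cells Csf3r took rank 3 and Kit and Csf2rb2 were near the bottom, with Cd34 at rank 6. Levels of both leukemia cell libraries lay above those of all 4 macrophage libraries for 5 genes (Csf2ra, Csf2rb, Csf3r, Il3ra and Cd34), below them for 2 genes (Kit and Flt3), and overlapped with them for 2 genes (Csf1r and Csf2rb2). Of 18397 genes with at least 10 reads in any library, 32.7% lay above in the same way, 34.5% lay below and 67.2% did either. The 7 of 9 are therefore near the background. The range over the 6 libraries differed widely between the genes, from 103-fold for Cd34, 7.26-fold for Csf3r and 4.76-fold for Il3ra to 1.67-fold for Csf2rb.

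**Figure D1:**
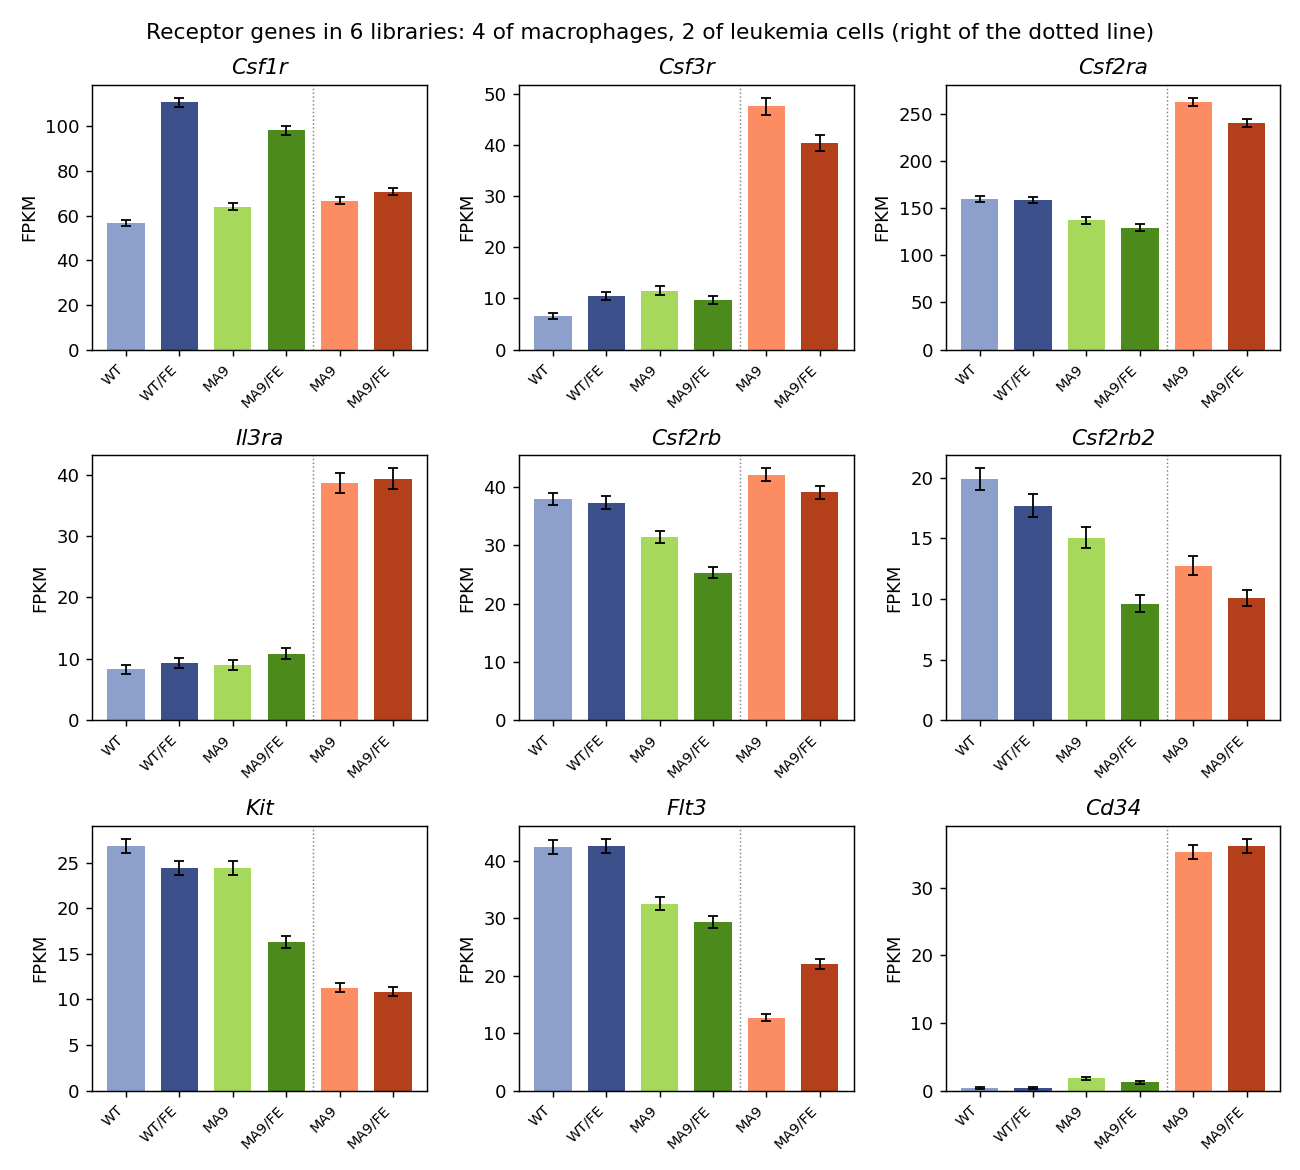
Level (FPKM, vertical axes from 0) of each of the 9 genes in the 6 libraries, with 1 bar per library; error bars are 95% Poisson intervals of the recovered reads and cover counting error only. Csf1r is highest in the 2 macrophage libraries with iron (111 and 98.1 FPKM), whereas Csf3r, Il3ra and Cd34 are highest in the 2 leukemia cell libraries.

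There are 7 comparisons in the design, 3 for iron, 2 for leukemia in the host and 2 for leukemia cells against macrophages of the same treatment, and several of them share a library. A gene was counted as past the fold when log2(FPKM + 1), after TMM scaling of the pair, differed by a fold of at least 2 with at least 10 reads in 1 of the libraries. This scale understates the change of genes near 0. With iron, 0 of 9 genes passed the fold in WT/FE against WT macrophages, where 1.27% of all genes did, 0 of 9 in MA9/FE against MA9 macrophages, where 2.46% did, and 0 of 9 in MA9/FE against MA9 leukemia cells, where 0.863% did. Between leukemic and healthy hosts, 1 gene (Cd34) was higher in MA9 than in WT macrophages, against 3.79% of all genes, and 0 of 9 passed in MA9/FE against WT/FE macrophages, against 4.57% of all genes in either direction.

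More of the genes passed the fold between cell types. In MA9 mice 3 genes were higher in leukemia cells (Csf3r, Il3ra and Cd34), where 7.34% of all genes were, and 2 were lower (Kit and Flt3), where 12.6% were. In MA9/FE mice 3 genes were higher (again Csf3r, Il3ra and Cd34), where 9.6% of all genes were, and 0 were lower, where 13.2% were. Among all genes past the fold, 48.8% were on the higher side in MA9/FE against MA9 macrophages and 64.1% were higher in MA9/FE than in WT/FE macrophages, and these shares became 31.3% and 46.6% when the trend of the fold change on exon length was removed.

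**Figure D2:**
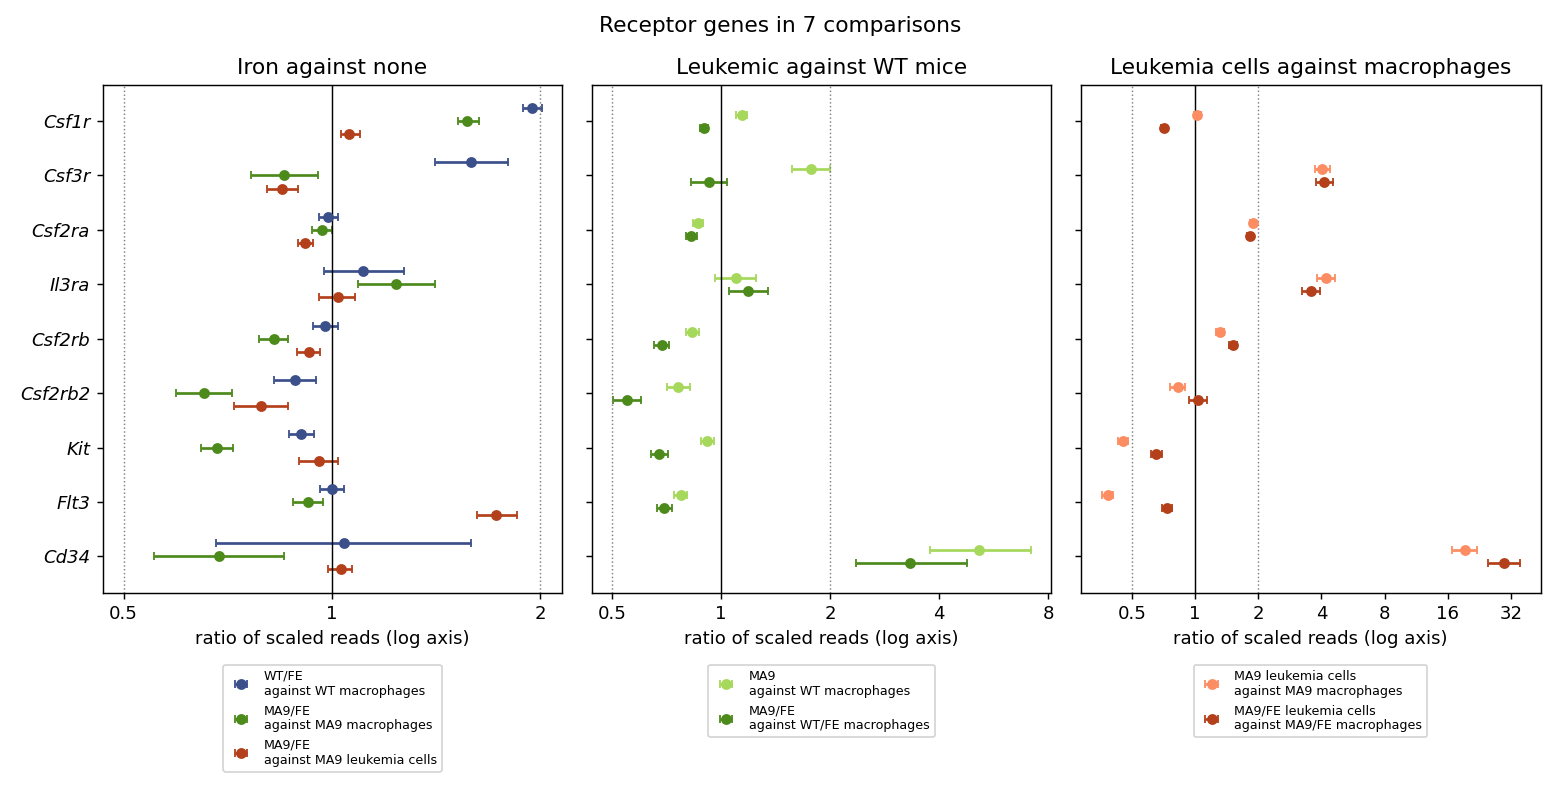
Ratio of scaled reads (log2-spaced horizontal axes) for the 9 genes in the 3 iron comparisons, the 2 comparisons of leukemic with WT hosts and the 2 comparisons of leukemia cells with macrophages; bars are exact 95% intervals of the read ratio and cover counting error only, and dotted lines mark ratios of 0.5 and 2. Csf1r stands at 1.95 and 1.57 with iron in macrophages, Flt3 at 1.73 with iron in leukemia cells, and Cd34 at 19.3 and 29.6 in leukemia cells against macrophages.

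Csf1r (ENSMUSG00000024621, chromosome 18) encodes the receptor of M-CSF and IL-34, the growth factors that macrophages need to survive. In healthy mice its level in macrophages was 56.6 FPKM without iron (WT) and 111 FPKM with it (WT/FE), and in leukemic mice the macrophages had 63.9 (MA9) and 98.1 FPKM (MA9/FE). The leukemia cells had 66.6 (MA9) and 70.7 FPKM (MA9/FE). Both macrophage libraries with iron lay above all other libraries. The read ratio of WT/FE over WT macrophages was 1.95 (95% interval 1.89 to 2.01), and that of MA9/FE over MA9 macrophages was 1.57 (1.52 to 1.63), so that Csf1r ended just under the fold in the former (log2 fold change 0.95) and farther under it in the latter (0.65). These changes stood at percentile 99.1 and 95.2 among all genes of the comparison. In leukemia cells the ratio with iron was 1.06 (1.03 to 1.10). The reads of Csf1r were not whole in 4 libraries and are approximate there.

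Macrophage markers were mostly higher with iron in macrophages, as Csf1r was. Of 16 such genes, 15 had at least 10 reads, and their median log2 fold change with iron was 0.90 in WT and 1.10 in MA9 macrophages. In these pairs 4 and 9 of them were past the fold and higher and 0 were lower. Of all genes, 1.27% and 2.46% passed the fold in either direction. Vcam1, an adhesion molecule of splenic and marrow macrophages, went from 19.9 to 46.0 FPKM in WT and from 18.8 to 44.5 FPKM in MA9 macrophages. Slc40a1, the iron exporter ferroportin, went from 18.8 to 40.8 and from 17.6 to 49.4 FPKM, and Mrc1, the mannose receptor, from 9.13 to 19.4 and from 7.34 to 17.1 FPKM. Csf1r thus moved less than these genes in the MA9 pair, but more than Siglec1 (2.15 to 2.26 FPKM) and Cd68 (71.9 to 91.65 FPKM). In the leukemia cells the median of the 14 markers with enough reads was -0.08. The part of macrophage content in the higher Csf1r level was not tested.

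**Figure D3:**
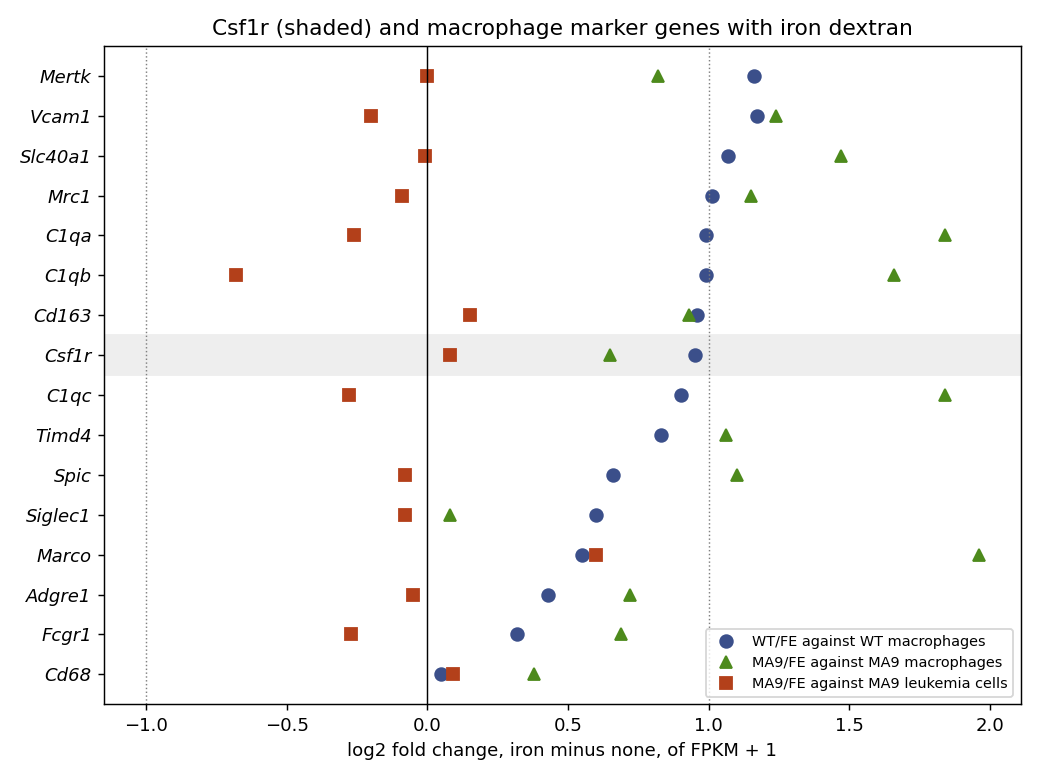
Log2 fold change with iron (horizontal axis, iron minus none, of FPKM + 1) of Csf1r, shaded, and 15 macrophage marker genes in WT macrophages (circles), MA9 macrophages (triangles) and MA9 leukemia cells (squares); dotted lines mark a fold of 2 and no replicates exist. Csf1r lies at 0.95, 0.65 and 0.08 in this order, and the leukemia cells show no common rise of the markers (median -0.08).

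Csf1r did not separate leukemia cells from macrophages without iron. The ratio of MA9 leukemia cells over MA9 macrophages was 1.02 (0.985 to 1.06), an interval that spans 1, while 10 of the 15 macrophage markers with enough reads were lower in the leukemia cells and 0 were higher, against 12.6% and 7.34% of all genes. Mertk (0.241 against 8.68 FPKM) and Spic (0.330 against 14.7 FPKM) were among the lower ones, whereas Adgre1 (28.6 against 32.2 FPKM), Cd68 (100.1 against 71.9 FPKM) and Cd163 (6.30 against 3.80 FPKM) did not pass the fold. With iron the ratio was 0.707 (0.685 to 0.729). Across hosts, Csf1r was 1.14-fold (1.10 to 1.18) higher in MA9 than in WT macrophages, but MA9/FE macrophages held 0.899 times (0.874 to 0.924) the level of WT/FE macrophages.

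Csf3r (ENSMUSG00000028859, chromosome 4, 126024550 to 126044440, plus strand, GRCm38) encodes the receptor of G-CSF, the growth factor of neutrophils. WT macrophages were lowest with 6.56 FPKM, and the other libraries had 10.5 (WT/FE), 11.5 (MA9) and 9.59 FPKM (MA9/FE). MA9 leukemia cells had 47.6 FPKM and MA9/FE leukemia cells 40.4 FPKM, above every macrophage library. The ratio of leukemia cells over macrophages was 4.04 (3.72 to 4.39) in MA9 and 4.13 (3.77 to 4.53) in MA9/FE mice. With iron it differed in opposite directions by the counting intervals: the ratio was 1.59 (1.41 to 1.80) in WT macrophages, 0.854 (0.763 to 0.955) in MA9 macrophages and 0.848 (0.805 to 0.894) in leukemia cells. MA9 macrophages held 1.77 times (1.57 to 2.0) the Csf3r reads of WT macrophages. In this pair 12 of 14 neutrophil markers were also higher, against 3.79% of all genes. Among them were S100a8 (0.812 to 411 FPKM) and Elane (1.51 to 56.8 FPKM), which stood at 805 and 1705 FPKM in MA9 leukemia cells. The summed neutrophil markers were 12.5 and 9.78 FPKM in WT and WT/FE macrophages, where Csf3r also differed. The part of neutrophils or leukemia cells in these Csf3r differences was not tested.

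Csf2ra (ENSMUSG00000059326, chromosome 19, 61223957 to 61228429, minus strand), which binds GM-CSF, was nearly level in macrophages of healthy mice (WT 160 FPKM, WT/FE 159 FPKM) and somewhat lower in those of leukemic mice (MA9 137 FPKM, MA9/FE 129 FPKM). Leukemia cells had 263 FPKM (MA9) and 241 FPKM (MA9/FE). The 2 leukemia cell libraries were highest, with ratios over the macrophages of 1.88 (1.82 to 1.93) and 1.82 (1.77 to 1.88), close to the fold but under it (log2 fold changes 0.90 and 0.86). With iron the ratio was 0.987 (0.957 to 1.02) in WT macrophages and 0.916 (0.894 to 0.938) in leukemia cells. Its reads, like those of Csf1r, are approximate.

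Il3ra (ENSMUSG00000068758, chromosome 14, 14346275 to 14356011, plus strand) encodes the IL-3 receptor alpha chain, CD123, a surface protein well known on human AML blasts. It stood between 8.27 and 10.8 FPKM in the 4 macrophage libraries and at 38.6 (MA9) and 39.4 FPKM (MA9/FE) in the leukemia cells. Leukemia cells exceeded macrophages by 4.20-fold (3.80 to 4.66) in MA9 and by 3.56-fold (3.23 to 3.93) in MA9/FE mice. With iron it was 1.24-fold (1.09 to 1.41) higher in MA9 macrophages, but in WT macrophages (1.11, 0.975 to 1.27) and in leukemia cells (1.02, 0.959 to 1.08) the intervals spanned 1. The balance of these alpha chains differed between the cell types: Csf2ra divided by Il3ra gave 19.4 (WT), 17.2 (WT/FE), 15.3 (MA9) and 11.9 (MA9/FE) in macrophages and 6.81 and 6.12 in the leukemia cells.

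Csf2rb (ENSMUSG00000071713, chromosome 15, 78325752 to 78353847, plus strand) encodes the beta chain shared by the GM-CSF, IL-3 and IL-5 receptors, and the neighboring Csf2rb2 (ENSMUSG00000071714, chromosome 15, 78282507 to 78305721, minus strand) encodes a second beta chain of the mouse that serves IL-3 alone. Their coding sequences aligned over 2628 bases with 95.2% identity and a longest identical run of 242 bases. Of the 100-base windows in their annotated transcripts, 334 were shared between the genes, 4.63% of those of Csf2rb and 6.82% of those of Csf2rb2, so that reads could be split between them in the shared stretch and both values carry that uncertainty. The stretch below, coding bases 19 to 138 of each transcript, has 6 differing bases in 120 and shows how alike they are; capitals mark the differing bases, and the sequences were read from the GENCODE M21 transcripts.
Csf2rb: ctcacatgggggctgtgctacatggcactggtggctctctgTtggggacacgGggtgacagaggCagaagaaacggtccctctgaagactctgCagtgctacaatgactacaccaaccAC
Csf2rb2: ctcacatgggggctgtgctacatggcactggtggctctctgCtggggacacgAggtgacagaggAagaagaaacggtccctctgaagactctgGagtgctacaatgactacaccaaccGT

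The paired genes had the same order in the macrophage libraries but parted in the leukemia cells. Macrophages of WT and WT/FE mice had 38.0 and 37.3 FPKM of Csf2rb, those of MA9 mice 31.4 FPKM and those of MA9/FE mice 25.3 FPKM, and the leukemia cells 42.2 (MA9) and 39.1 FPKM (MA9/FE). In the same order, Csf2rb2 had 19.9, 17.7, 15.1 and 9.60 FPKM in the macrophages and 12.7 and 10.1 FPKM in the leukemia cells. Csf2rb was thus highest and Csf2rb2 was low in leukemia cells. For Csf2rb the counting intervals of MA9/FE leukemia cells (38.02 to 40.18 FPKM) and WT macrophages (37.02 to 39.05 FPKM) overlapped. The ratio of Csf2rb over Csf2rb2 was 1.91, 2.11, 2.09 and 2.63 in the macrophages and 3.31 and 3.88 in the leukemia cells. MA9/FE macrophages were lowest for both genes. For Csf2rb2, however, their counting interval (8.92 to 10.32 FPKM) overlapped with that of MA9/FE leukemia cells (9.42 to 10.78 FPKM). Against WT/FE macrophages, the MA9/FE ratio was 0.551 (0.503 to 0.603) for Csf2rb2 and 0.687 (0.656 to 0.720) for Csf2rb, and against MA9 macrophages it was 0.653 (0.595 to 0.717) and 0.825 (0.786 to 0.865). Csf2rb2 was also lower with iron in leukemia cells (0.790, 0.722 to 0.865) and in WT macrophages (0.886, 0.826 to 0.950).

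Kit (ENSMUSG00000005672, chromosome 5, 75574916 to 75656722, plus strand) encodes the stem cell factor receptor. Its macrophage level was 26.8 FPKM in WT mice, 24.4 FPKM both in WT/FE and MA9 mice, and 16.2 FPKM in MA9/FE mice, and the leukemia cells had 11.3 (MA9) and 10.8 FPKM (MA9/FE). All macrophage libraries lay above the leukemia cells, which descend from c-kit+ cells, and MA9 leukemia cells held 0.452 times (0.427 to 0.478) the reads of MA9 macrophages. In MA9/FE mice, where the macrophage level was itself lower, the ratio was 0.653 (0.613 to 0.695) and did not pass the fold. With iron the ratio was 0.682 (0.648 to 0.719) in MA9 macrophages, 0.904 (0.866 to 0.944) in WT macrophages and 0.959 (0.897 to 1.02) in leukemia cells. The MA9/FE library ran low in genes with long exons, and Kit, with 8911 exon bases the longest of the 9 genes, had a log2 fold change against MA9 macrophages of -0.52 as measured and -0.41 with the length trend removed.

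Flt3 (ENSMUSG00000042817, chromosome 5, 147330741 to 147400489, minus strand) encodes the Flt3 ligand receptor, a kinase of progenitors and dendritic cells that is often mutated in human AML. WT and WT/FE macrophages were alike at 42.4 and 42.6 FPKM, while 32.5 FPKM was found for MA9 and 29.3 FPKM for MA9/FE macrophages. The leukemia cells had 12.7 FPKM without iron and 22.0 FPKM with it. Leukemia cells with iron held 1.73 times (1.62 to 1.85) the Flt3 reads of those without, at percentile 99.1 of all genes, whereas the ratio with iron was 1.0 (0.961 to 1.04) in WT macrophages and 0.925 (0.880 to 0.972) in MA9 macrophages. This was the largest change with iron among the 9 genes in leukemia cells and remained under the fold (log2 fold change 0.75). In the same cells Kit did not follow, so that the ratio of Flt3 over Kit was 1.12 in leukemia cells without iron and 2.03 in those with it.

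Macrophage libraries from leukemic mice held less Flt3, at 0.774 (0.741 to 0.809) for MA9 over WT and 0.698 (0.666 to 0.732) for MA9/FE over WT/FE. Itgax (CD11c), a surface integrin of dendritic cells, had 159 (WT), 148 (WT/FE), 109 (MA9) and 88.2 FPKM (MA9/FE) in macrophages and was, like Kit, highest in WT and lowest in MA9/FE macrophages. Zbtb46 was also highest in WT and lowest in MA9/FE macrophages (15.3 and 9.40 FPKM). Clec9a was, like Flt3, highest in WT/FE and lowest in MA9/FE macrophages (31.5 and 25.5 FPKM). The other dendritic cell markers took another order. Xcr1 and Siglech were highest in MA9 (11.7 and 12.4 FPKM) and Bst2 in MA9/FE macrophages (121 FPKM). H2-Ab1 and Cd209a were lowest in MA9 macrophages (1909 and 12.8 FPKM). In MA9 against WT macrophages 1 of the 8 markers was lower, and their median was -0.19 (log2 fold change). The dendritic genes Zbtb46, Clec9a and Xcr1 were present in all macrophage libraries (9.25 to 31.5 FPKM) and at most at 2.14 FPKM in leukemia cells. Other genes of the list were well detected there, with Bst2 at 82.6 and 66.8 FPKM and H2-Ab1 at 42.3 and 45.4 FPKM. In MA9 leukemia cells against MA9 macrophages 7 of the 8 markers were lower, against 12.6% of all genes. The part of dendritic cells in the macrophage levels of Flt3 and Kit was not tested. Of the basophil and mast cell genes, 9 had at least 10 reads in MA9 against WT macrophages. There 7 were higher, against 3.79% of all genes, and 0 were lower. Cma1 and Tpsb2 were at 1.08 to 2.77 and 0 to 0.173 FPKM in the macrophage libraries. Prss34 was at 5.14 and 4.65 FPKM in WT and WT/FE and at 93.2 and 38.4 FPKM in MA9 and MA9/FE macrophages. In the same order Cpa3 was at 3.92, 2.75, 9.15 and 5.94 FPKM. The part of such cells in the Kit level was not tested.

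Cd34 (ENSMUSG00000016494, chromosome 1, 194938819 to 194961279, plus strand) divided the libraries most. There were 50 reads (0.351 FPKM) in WT and 45 (0.367 FPKM) in WT/FE macrophages, 222 (1.79 FPKM) in MA9 and 141 (1.20 FPKM) in MA9/FE macrophages, and 4671 (35.3 FPKM) and 4717 (36.2 FPKM) in the leukemia cells. The groups fell into 3 levels without overlap of their counting intervals: macrophages of healthy mice, macrophages of leukemic mice and leukemia cells. MA9 macrophages held 5.14 times (3.77 to 7.14) the Cd34 reads of WT macrophages, and MA9/FE macrophages 3.32 times (2.36 to 4.76) those of WT/FE macrophages. Leukemia cells held 19.3 times (16.8 to 22.1) the reads of MA9 macrophages and, with iron, 29.6 times (25 to 35.2) those of MA9/FE macrophages. With iron the ratio was 0.688 (0.553 to 0.854) in MA9 macrophages, and the intervals spanned 1 in WT macrophages (1.04, 0.680 to 1.59) and in leukemia cells (1.03, 0.986 to 1.07).

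Some genes that were high in the leukemia cells were, like Cd34, higher in macrophages of leukemic than of healthy mice. Of 9 progenitor genes, 4 were past the fold and higher in MA9 than in WT macrophages, against 3.79% of all genes. None was lower and 5 were under the fold. Mpo was among the 4 and Hoxa9 was not. Meis1, at 7.27 FPKM in MA9 leukemia cells, was at 0.774 and 0.933 FPKM in WT and MA9 macrophages. Hoxa9, a homeobox gene that MLL fusions keep active, was at 0.119 and 0.128 FPKM in macrophages of healthy mice, at 0.791 and 0.724 FPKM in those of leukemic mice, and at 40.6 and 41.0 FPKM in leukemia cells. Mpo, the myeloperoxidase of granulocyte progenitors, was at 1.63 and 1.53, at 47.1 and 22.9, and at 775 and 744 FPKM in the same groups. Their part in the Cd34 level of the MA9 and MA9/FE macrophage libraries was not tested.

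**Figure D4:**
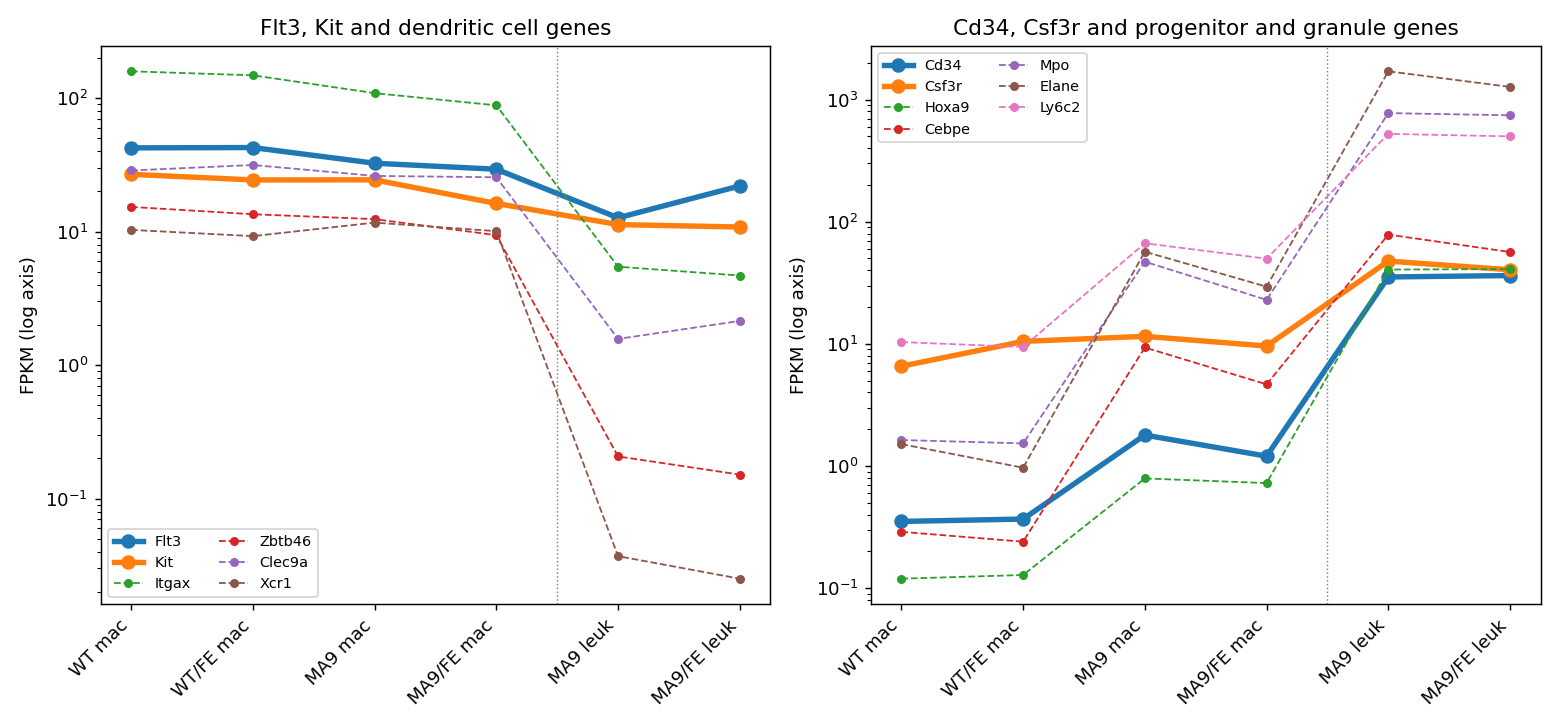
Level (FPKM, log axes) in the 6 libraries of Flt3 and Kit beside dendritic cell genes (left) and of Cd34 and Csf3r beside progenitor and granulocyte genes (right); thick lines are the receptor genes, mac and leuk stand for macrophages and leukemia cells, and lines only join the points of a gene. On the left Itgax drops to 5.46 and 4.69 FPKM in leukemia cells where Kit keeps 11.3 and 10.8, and on the right Cd34 takes 3 levels as Hoxa9 and Mpo do.

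The upstream regions of genes that stood high or low together in the leukemia cells are shown because transcription factors of the blood lineages bind such regions. RefSeq (GRCm38.p6) gave the 250 bases before the start for 7 of the 9 genes, and these were searched on both strands for 5 motifs. GAGGAAG is the core that PU.1, an ETS factor, binds, and TTNNGCAA is bound by C/EBP factors. The others were TGTGGT, which RUNX factors bind, AGATAA for the family of Gata1, and CNGTTG for MYB. Shown are the bases that lie outside the annotated gene for Cd34 and Csf3r, higher in leukemia cells, and for Kit and Flt3, lower in them, each 5′ to 3′ on the strand of its gene, with matches in capitals: Cd34 at chr1:194938571-194938818 (plus), Csf3r at chr4:126024409-126024549 (plus), Kit at chr5:75574737-75574915 (plus) and Flt3 at chr5:147400490-147400739 (minus).
Cd34: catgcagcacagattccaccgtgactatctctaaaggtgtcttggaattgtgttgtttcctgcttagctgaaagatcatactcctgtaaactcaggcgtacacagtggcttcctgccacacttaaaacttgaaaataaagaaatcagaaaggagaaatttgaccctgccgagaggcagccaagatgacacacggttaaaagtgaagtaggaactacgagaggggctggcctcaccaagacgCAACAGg
Csf3r: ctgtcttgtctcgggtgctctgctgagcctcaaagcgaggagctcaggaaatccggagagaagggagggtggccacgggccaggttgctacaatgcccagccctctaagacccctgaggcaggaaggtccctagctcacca
Kit: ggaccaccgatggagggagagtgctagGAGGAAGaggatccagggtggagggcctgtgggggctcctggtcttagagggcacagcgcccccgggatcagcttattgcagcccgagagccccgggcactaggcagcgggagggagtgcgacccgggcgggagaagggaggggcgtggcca
Flt3: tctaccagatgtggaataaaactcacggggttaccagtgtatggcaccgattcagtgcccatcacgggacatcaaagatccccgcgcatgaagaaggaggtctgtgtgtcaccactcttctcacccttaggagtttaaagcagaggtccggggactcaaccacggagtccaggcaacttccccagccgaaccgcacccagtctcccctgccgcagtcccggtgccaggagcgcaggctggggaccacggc

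The motif GAGGAAG lay in the windows of Csf2ra, Csf2rb2, Csf3r and Kit, 4 of 7 genes, where 10.6% of 32851 RefSeq windows of the same length held it. In Csf2ra it occurred at positions -14 and -8 from the start, with the copies overlapping by the last base, in Csf3r at -86, in Csf2rb2 at -168 on the opposite strand and in Kit at -223. TTNNGCAA lay in the window of Il3ra (position -134, opposite strand; 9.56% of all windows) and CNGTTG in those of Csf2ra (-170) and Cd34 (-9), both on the opposite strand (29.3% of all windows). TGTGGT and AGATAA, in 14% and 9.99% of all windows, were not among the letters of the 7 windows. The matches of Csf3r and Il3ra, and those of Csf2ra at -14 and -8, reach into bases that the annotation counts as the first exon and are not printed.

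Of 18 transcription factors linked to these genes, 8 were higher and 4 lower in MA9 leukemia cells than in MA9 macrophages, and 9 were higher and 4 lower in MA9/FE mice. Of all genes, 7.34% were higher and 12.6% lower in MA9 mice and 9.6% and 13.2% in MA9/FE mice. The median log2 fold changes of the factors were 0.57 and 1.03, against -0.01 and -0.03 over all genes. Spi1, which encodes PU.1, stayed within 96.3 to 138 FPKM in the 6 libraries. Cebpa, a C/EBP factor of granulocyte and monocyte progenitors, was at 14.1 and 18.2 FPKM in MA9 and MA9/FE macrophages and at 87.9 and 96.6 FPKM in leukemia cells, and Myb, a factor of progenitors, at 14.0 and 7.91 against 70.6 and 77.0 FPKM. With iron, Tal1 was lower in MA9/FE than in MA9 macrophages (log2 fold change -1.04), and Klf4 was higher in leukemia cells (24.6 to 54.5 FPKM, log2 fold change 1.11). In MA9 against WT macrophages 5 of the 18 factors were higher, against 3.79% of all genes, and 0 were lower. Among the 5 were Cebpe (0.289 to 9.34 FPKM), a factor of granule maturation, and Tal1 (1.98 to 11.4 FPKM), a factor of erythroid cells and progenitors.

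The ligand genes were low in all 6 libraries, with none above 7.32 FPKM. Of 8 ligand genes, Il3 was at 0 in all 6 libraries, which allows at most 3 reads in each, and Csf2, Csf3, Il5 and Il34 had at most 12 reads in any library. Csf1, which encodes M-CSF, was highest in MA9 macrophages with 3.13 FPKM, and WT, WT/FE and MA9/FE macrophages had 1.82, 1.90 and 1.79 FPKM and leukemia cells 2.91 and 2.43 FPKM. The ratio of Csf1r over Csf1 was 31.0 in WT and 20.4 in MA9 macrophages, 58.2 and 54.8 in the matching macrophages with iron, and 22.9 and 29.1 in leukemia cells. Csf1 was 1.73-fold (1.43 to 2.09) higher in MA9 than in WT macrophages and 0.586 times (0.478 to 0.717) as high in MA9/FE as in MA9 macrophages, opposite to Csf1r in the latter.

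Flt3l, the ligand of Flt3, stood at 7.32 (WT), 6.71 (WT/FE), 5.31 (MA9) and 5.85 FPKM (MA9/FE) in macrophages and at 2.67 and 2.27 FPKM in leukemia cells. It was the single ligand past the fold, lower in MA9/FE leukemia cells than in MA9/FE macrophages (log2 fold change -1.09). Kitl, the stem cell factor gene, was at 0.321 to 0.473 FPKM in macrophages and had 1 read in each leukemia cell library.

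The kinases and adaptors that act directly below these receptors were compared as a list. Of 28 genes, all of which had at least 10 reads, 0 passed the fold in the 3 iron comparisons and in the 2 host comparisons, with medians from -0.26 to 0.01. In leukemia cells against macrophages 1 was higher and 7 were lower in MA9 mice, and 0 were higher and 9 were lower in MA9/FE mice. The shares over all genes were 7.34% higher and 12.6% lower in the former, and 9.6% and 13.2% in the latter. Jak2, the kinase bound to the shared beta chain, had 60.3 and 49.9 FPKM in macrophages of leukemic mice and 15.2 and 14.6 FPKM in leukemia cells, where Csf2ra and Il3ra were higher. Fgr, a SRC family kinase of myeloid cells, was at 59.8 FPKM in MA9 macrophages and at 8.27 FPKM in MA9 leukemia cells. Tyrobp, the adaptor DAP12 that acts with Csf1r, was the gene that was higher (293 to 667 FPKM).

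Genes induced by cytokine signals were counted in the same way. Of 20 such genes, 9 were lower and 3 higher in leukemia cells than in macrophages, with equal counts in MA9 and in MA9/FE mice, where 12.6% and 13.2% of all genes were lower and 7.34% and 9.6% were higher. Socs2 and Socs3, feedback inhibitors of JAK and STAT signaling, were at 5.18 and 18.1 FPKM in MA9 macrophages and at 0.352 and 1.64 FPKM in MA9 leukemia cells, and Osm, a STAT5 target that encodes oncostatin M, was at 7.33 against 25.7 FPKM. Cish, another STAT5 target, stayed between 0.419 and 0.704 FPKM in all libraries. With iron 0 of the 20 passed the fold in the macrophages. In leukemia cells 1 of the 19 with at least 10 reads was higher and 0 were lower, where 0.863% of all genes passed in either direction. The median log2 fold change of the 19 was 0.02. The higher gene was Egr1, an immediate early gene of growth factor signals (10.2 to 21.9 FPKM, log2 fold change 1.04). A relation of Egr1 to the receptor genes was not tested.

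Among 30 other cytokine and chemokine receptor genes, 0 passed the fold with iron in any of the 3 pairs. In leukemia cells of MA9 mice 12 were lower and 1 was higher than in macrophages, and in MA9/FE mice 9 were lower and 1 was higher, beside 12.6% lower and 7.34% higher among all genes in MA9 and 13.2% and 9.6% in MA9/FE mice. Il2rb, Il9r and Il10ra, receptors of lymphocytes and macrophages, went from 20.3, 18.8 and 105 FPKM in MA9 macrophages to 0.231, 0 and 16.6 FPKM in MA9 leukemia cells. Tnfrsf1a, a TNF receptor, was the gene that was higher (27.1 to 71.0 FPKM). Il5ra, the other alpha chain that pairs with Csf2rb, was at 4.41 to 7.74 FPKM in the macrophages and at 0.0770 and 0.0157 FPKM in leukemia cells, opposite to Csf2ra and Il3ra. In MA9 against WT macrophages Epor, the erythropoietin receptor, was among the genes that were higher (3.89 to 10.1 FPKM), beside the erythroid factor Klf1 (5.06 to 24.9 FPKM).

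Within the structural class of Csf1r, Kit and Flt3, Pdgfrb was the other gene detected, at 0.306 to 0.580 FPKM in macrophages and at 4.40 and 4.02 FPKM in leukemia cells. Podxl, a relative of Cd34, had 1.39 FPKM in MA9 macrophages and at most 0.102 FPKM in the other libraries.

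Genes whose levels ran most like those of a receptor gene over the 6 libraries were picked by the root mean square difference of centred log2(FPKM + 1) among 11233 genes with at least 100 reads in a library. For Cd34 they were Lbp, Sgms2 and Chdh (differences of 0.101, 0.132 and 0.153, with a range of 4.78 for Cd34 itself). For Kit they were Lrrk1, Ncoa3 and Mtmr4 (0.042, 0.063 and 0.067), for Flt3 Myadm, Chd3 and Kdm7a (0.138, 0.148 and 0.151), and for Csf1r Tgm1, Pilra and Slc1a3 (0.173, 0.182 and 0.189). For Csf3r they were Cd300lb, Cdkn2a and Plod3 (0.119, 0.137 and 0.149) and for Il3ra Msl3l2, Bphl and Plod1 (0.049, 0.085 and 0.102). For Csf2ra they were Kmt5c, Ppm1e and Fry (0.036, 0.053 and 0.054), for Csf2rb Wdr13, Srcap and Tmem170b (0.038, 0.056 and 0.064), and for Csf2rb2 Adamts13, Dclre1c and Mrtfa (0.084, 0.127 and 0.127). With 6 libraries and 11233 candidates this likeness is a description only.

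Some reads may belong to overlapping genes, because the strand setting of the counting is not given in the sources used here. Hmgxb3, on the strand opposite to Csf1r, was listed at 5.94 to 10.4 FPKM. The antisense genes Gm48860 (Il3ra), Gm26597 (Flt3) and Gm16897 (Cd34) were listed at no more than 1.93, 0.242 and 2.50 FPKM, and Csf3r shared 14 of its 100-base windows, 0.376%, with another gene. The other 6 genes shared none.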

How the data were processed

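RNA-seq of sorted cells was deposited by the authors as FPKM per gene, made per the labels with Bowtie2 2.2.5 and RSEM on mm10; the annotation is not given in the sources used here. FPKM times GENCODE M21 exon length (54495 of 54532 genes) gave whole reads for 96.8% to 97.0% of values above 0 (tolerance 0.05 reads), and thereby the depth. FPKM were scaled per pair by TMM (coded by hand), and folds were taken after adding 1 FPKM and a log2 transform, leaving out genes under 10 reads in both libraries. No count model was fitted, since each condition has 1 library. Read ratios carry exact binomial (Clopper-Pearson) and levels Poisson intervals at 95%, which cover counting error only. All 9 members were named, with list genes of at least 100 reads or with the largest changes, and examples outside this rule were picked with their values known. The members and the 6 gene and 12 marker lists were chosen with earlier results of these data known. Comparisons share libraries. Alternatives were other scalings, pseudocount 0.1, no minimum and 50 reads, and removal of the exon length trend. The steps were tested on simulated data. Python 3.11.15, pandas 2.3.3, numpy 2.4.6 and scipy 1.17.1 were used. Promoters are from RefSeq. A few list genes are not reported here.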

Additional observations from a re-analysis of the deposited data

Results flagged for a closer look

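Opposite directions beyond counting error were found for 3 genes, and with 1 library per condition the difference between the groups was not tested. Csf3r changed with iron by 0.60 on the log2 scale in WT macrophages, by -0.21 in MA9 macrophages and by -0.23 in leukemia cells. Flt3 changed with iron by 0.75 in leukemia cells and by -0.11 in MA9 macrophages. Csf1r differed between leukemic and healthy hosts by 0.18 without iron (MA9 against WT macrophages) and by -0.15 with iron (MA9/FE against WT/FE macrophages).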

How the results depend on the processing

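All 9 changes of the receptor genes past the fold stayed past it, in the same direction, under all 7 other settings. Of 63 values for receptor genes, 3 close to 0 changed sign in at least 1 setting (Csf2ra, Flt3 and Cd34 in WT/FE against WT macrophages). Of 441 values under the other settings, 13 moved beyond counting error. Some of these came from removing the exon length trend in MA9/FE against WT/FE macrophages. There Csf1r moved from -0.15 to -0.10 (log2), Csf2ra from -0.27 to -0.41, Csf2rb from -0.52 to -0.44 and Kit from -0.54 to -0.41. A value passed the fold under another setting: with a pseudocount of 0.1, Cd34 in MA9/FE against WT/FE macrophages reached 1.5 (log2), so that 1 receptor gene passed there. In the order WT/FE against WT macrophages, MA9/FE against MA9 macrophages and MA9/FE against MA9 leukemia cells, the genes past the fold numbered 784, 1499 and 631 with that pseudocount, 481, 731 and 375 with no minimum of reads and 116, 234 and 60 with a minimum of 50, against 213, 406 and 133. With the pseudocount of 0.1 they numbered 1980 in MA9 against WT and 2083 in MA9/FE against WT/FE macrophages, and 5809 and 6498 in leukemia cells against macrophages of MA9 and MA9/FE mice, against 795, 758, 3407 and 3832. No paired analysis was possible because each condition has 1 library and the labels carry no replicate numbers. The intervals cover counting error, and the spread between mice is unknown.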
